A study of Rattus norvegicus with 18 samples.

Results

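The 7 transcripts described here are the messenger RNAs of the complex I subunits encoded by the rat mitochondrial genome: mt-Nd1 (ENSRNOT00000047550.4), mt-Nd2 (ENSRNOT00000040993.4), mt-Nd3 (ENSRNOT00000041241.3), mt-Nd4l (ENSRNOT00000044582.3), mt-Nd4 (ENSRNOT00000042928.3), mt-Nd5 (ENSRNOT00000048767.3) and mt-Nd6 (ENSRNOT00000051268.3). They were taken by identifier from the 30897 transcripts listed in each library. The RNA came from primary rat hepatocytes, the parenchymal cells of the liver. For 6 h they received medium with 0.1% DMSO alone (Control, 3 libraries) or 1 of 4 compounds in the same vehicle. The compounds were acetaminophen (APAP, an analgesic) at 3 mM in 4 libraries, carbon tetrachloride (CCl4, a solvent, at a dose the labels do not state) in 3, the dioxin TCDD at 1 nM in 4 and trichloroethylene (TCE, a solvent) at 1 mM in 4. Whether replicates are separate animals or cultures is not stated, nor are strain, sex and age. The p-values below then measure only the spread between these libraries, which may be technical. The treatment was described as sub-toxic, in a text that does not name CCl4.

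Complex I (NADH:ubiquinone oxidoreductase) is the entry point of electrons from NADH into the respiratory chain and pumps protons across the inner mitochondrial membrane. Most of its subunits come from nuclear genes, but the core of its membrane arm is made inside the organelle from these messenger RNAs. Both strands of the mitochondrial genome are transcribed into long precursors that are cut into single messenger, ribosomal and transfer RNAs, so genes of the same strand share a precursor. mt-Nd6 is coded on the light strand and the other 6 on the heavy strand. The mitochondria of hepatocytes are abundant, and they are a known target of the reactive metabolite of acetaminophen.

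The deposited tables pair no identifier with a gene name, and 0 identifiers occur in the RefSeq table used for names. The names and strands above come with the list of identifiers and were not checked against an annotation. The 7 transcripts are 297 to 1830 bases long in the files, and counts were whole numbers in all 18 libraries for 6 of them and in 17 libraries for mt-Nd4l, within a tolerance of 0.000001. The labels do not say whether the libraries keep strand. Reads of mt-Nd6 and reads of opposite-strand precursors over the same bases then cannot be told apart, and the same holds for the other 6. Hepatocyte identity could not be checked by markers, for lack of names.

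Total estimated counts were 9280367 to 11479466 in 17 libraries and 6563387 in TCDD replicate 1. A count above 0 was listed for 27416 transcripts in that library, against 19151 to 19801 in the others, and it is shown apart from TCDD replicates 2 to 4 throughout.

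Within a library, the levels of the 7 transcripts spanned about an order of magnitude, and their order was nearly fixed. Levels are given as TPM (counts divided by effective length and scaled to the same sum in each library). mt-Nd3 encodes a small subunit that carries a mobile loop near the ubiquinone site, and it was highest in all 17 libraries other than TCDD replicate 1, with a median of 2543 TPM. mt-Nd4l, a small membrane subunit, came next in all 17 (median 869 TPM). mt-Nd2, mt-Nd1 and mt-Nd4 followed with medians of 573, 529 and 487 TPM. mt-Nd5 (321 TPM) and mt-Nd6 (182 TPM) were the lowest in all 17.

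The middle of this order was not separated by the spread between libraries. mt-Nd2 exceeded mt-Nd1 in 14 of 17 libraries, with a ratio of 0.976 to 1.27, and the 2 overlapped in 4 of the 5 groups, counting TCDD replicates 2 to 4 as the TCDD group. mt-Nd1 exceeded mt-Nd4 in 10 of 17, with a ratio of 0.706 to 1.27. In contrast, mt-Nd3 exceeded mt-Nd4l by 1.61 to 3.70-fold, with no overlap in any of the 5 groups. mt-Nd4l exceeded mt-Nd2 by 1.17 to 1.81-fold, mt-Nd4 exceeded mt-Nd5 by 1.39 to 1.95-fold, and mt-Nd5 exceeded mt-Nd6 by 1.59 to 2.12-fold within a library. The ratio of the highest to the lowest of the 7 was 13.8 ± 3.02 (SD, n = 17 libraries of all groups). mt-Nd3 and mt-Nd4l are also the shortest, with effective lengths of 164 to 174 and 120 to 128 bases, so their TPM depend most on the authors' length correction.

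**Figure D1:**
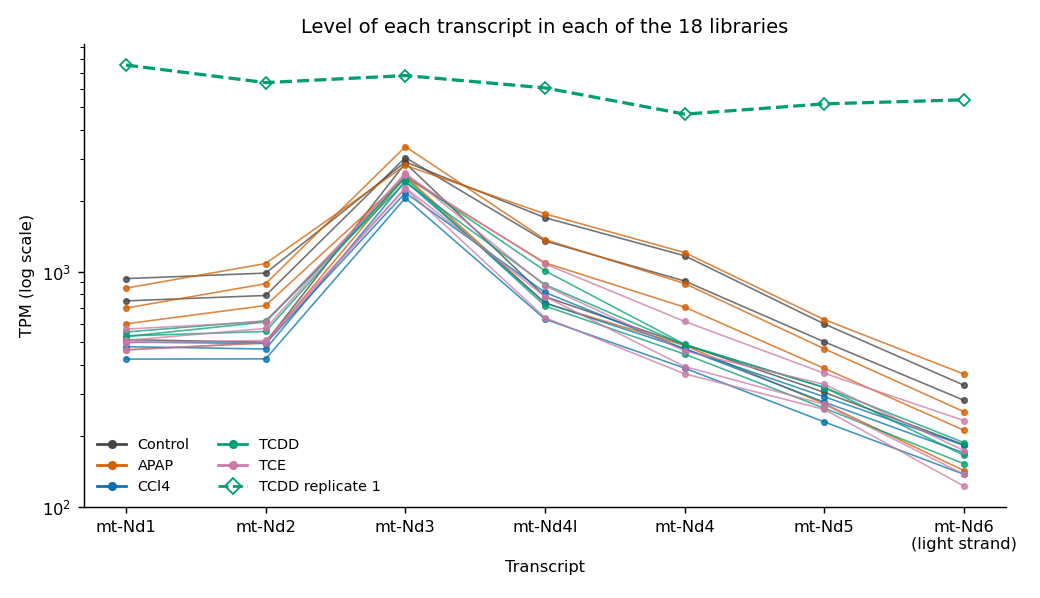
TPM (log scale) of each of the 7 transcripts, 1 line per library, coloured by group, with TCDD replicate 1 as a dashed line with open diamonds. The 17 other libraries peak at mt-Nd3 and fall to mt-Nd6, whereas TCDD replicate 1 is nearly level between 4676 and 7565 TPM.

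TCDD replicate 1 had the highest level of every member, and its levels were nearly equal. mt-Nd1 stood at 7565 TPM there, mt-Nd3 at 6824, mt-Nd2 at 6369, mt-Nd4l at 6048, mt-Nd6 at 5381, mt-Nd5 at 5172 and mt-Nd4 at 4676. The highest was 1.62 times the lowest, against 7.72 to 18.4 times in the other libraries. Compared with the mean of TCDD replicates 2 to 4, mt-Nd6 was 32.0-fold higher, mt-Nd5 17.2-fold, mt-Nd1 14.1-fold, mt-Nd2 10.7-fold, mt-Nd4 9.86-fold, mt-Nd4l 6.98-fold and mt-Nd3 2.74-fold. The members lowest elsewhere, mt-Nd5 and mt-Nd6, thus had the largest ratios, and mt-Nd3, highest elsewhere, had the smallest.

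For comparison, over the 9119 transcripts with a mean of at least 10 CPM (counts scaled to the library's total) in the other 17 libraries, the same ratio had a median of 0.652. Only 3 of these transcripts had a ratio as large as that of mt-Nd6, mt-Nd6 included, and 155 (1.70%) one as large as that of mt-Nd3. Together the members held 2.74% of that library's counts (95% Wilson interval 2.72% to 2.75%, counting error only). They held 0.205% ± 0.0122 in TCDD replicates 2 to 4 (SD, n = 3). mt-Nd6 made up 12.8% of the members' summed TPM in TCDD replicate 1 and 2.66% to 4.20% in the 17 others. These are values of a single library with no replicate; the part of its lower depth in them was not tested.

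**Figure D2:**
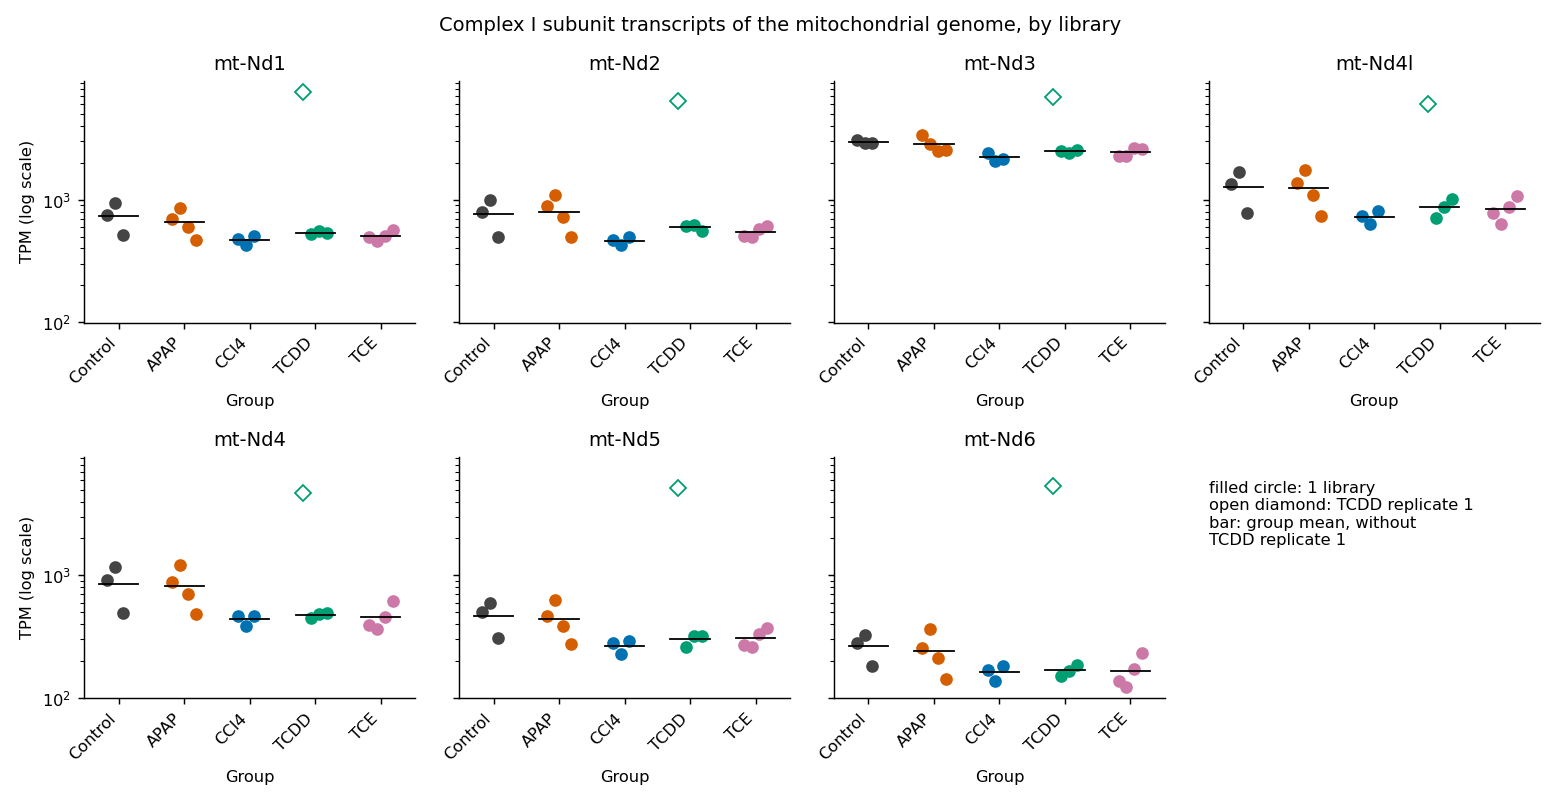
TPM (log scale) of each transcript in each library, by group, with bars at the group means without TCDD replicate 1 (open diamond). In every panel the diamond lies above all filled circles, and the mt-Nd4 circles of Control (489 to 1167 TPM) and APAP (484 to 1204 TPM) are more spread than those of the other groups.

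In the vehicle controls, 6 of the 7 transcripts moved together between libraries, and mt-Nd3 did not. mt-Nd4 encodes a proton-pumping subunit of the membrane arm and had 911, 1167 and 489 TPM in Control replicates 1, 2 and 3. mt-Nd1, the subunit at the joint of the 2 arms, had 750, 933 and 513 TPM in the same libraries. mt-Nd6, a small membrane subunit, had 283, 328 and 183 TPM. In each case Control replicate 2 was highest and Control replicate 3 lowest.

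mt-Nd3 had 3056, 2928 and 2896 TPM in these libraries, a coefficient of variation of 2.84%, against 28.1% to 40.0% for the other 6. Put beside the 9119 transcripts above, whose highest-to-lowest ratio among the controls had a median of 1.20, mt-Nd4 had a ratio of 2.39, reached by 2.74% of them, and mt-Nd3 one of 1.05, reached by 91.6%. The members' summed share of counts was 0.319%, 0.368% and 0.217% in the 3 controls.

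The APAP libraries showed the same kind of spread. mt-Nd4 had 889, 1204, 705 and 484 TPM in APAP replicates 1 to 4, and mt-Nd1 had 699, 850, 599 and 465 TPM. mt-Nd6 had 253, 366, 211 and 142 TPM. APAP replicate 2 was highest and APAP replicate 4 lowest for the 6 members other than mt-Nd3, with highest-to-lowest ratios of 1.83 to 2.58. mt-Nd3 had 3401, 2830, 2519 and 2543 TPM, a ratio of 1.35.

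In the other 3 groups mt-Nd4 and mt-Nd1 were less spread. mt-Nd4 had 469, 388 and 468 TPM with CCl4, 445, 487 and 490 in TCDD replicates 2 to 4, and 394, 367, 459 and 613 with TCE. mt-Nd1 had 479, 424 and 501 TPM with CCl4, 529, 553 and 532 in TCDD replicates 2 to 4, and 498, 463, 509 and 569 with TCE. mt-Nd6 had 169, 137 and 182 TPM with CCl4, 152, 165 and 187 in TCDD replicates 2 to 4, and 137, 122, 173 and 232 with TCE. For mt-Nd1 the coefficient of variation was 8.48%, 2.46% and 8.61% in these groups, and for mt-Nd4 it was 10.5%, 5.23% and 24.0%. mt-Nd6 varied as much with TCE (29.4%) as in Control (28.1%), and mt-Nd3 varied more in these 3 groups (8.57%, 3.39% and 8.12%) than in Control. All of their mt-Nd4 and mt-Nd1 values lay under those of Control replicates 1 and 2 and of APAP replicates 1 and 2.

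Across the 17 libraries, log2 TPM of the 15 pairs of members without mt-Nd3 correlated at 0.90 to 0.99 (Pearson), and the 6 pairs with mt-Nd3 at 0.73 to 0.76. After subtracting each group's mean the ranges were 0.90 to 0.99 and 0.42 to 0.53. The members of 1 library share its depth and scaling, so these are descriptions. mt-Nd6, from the opposite strand, correlated at 0.90 with mt-Nd2, 0.94 with mt-Nd1 and 0.97 with mt-Nd4l, mt-Nd4 and mt-Nd5, beside 0.94 to 0.99 for the 10 pairs of these 5 heavy-strand members.

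**Figure D3:**
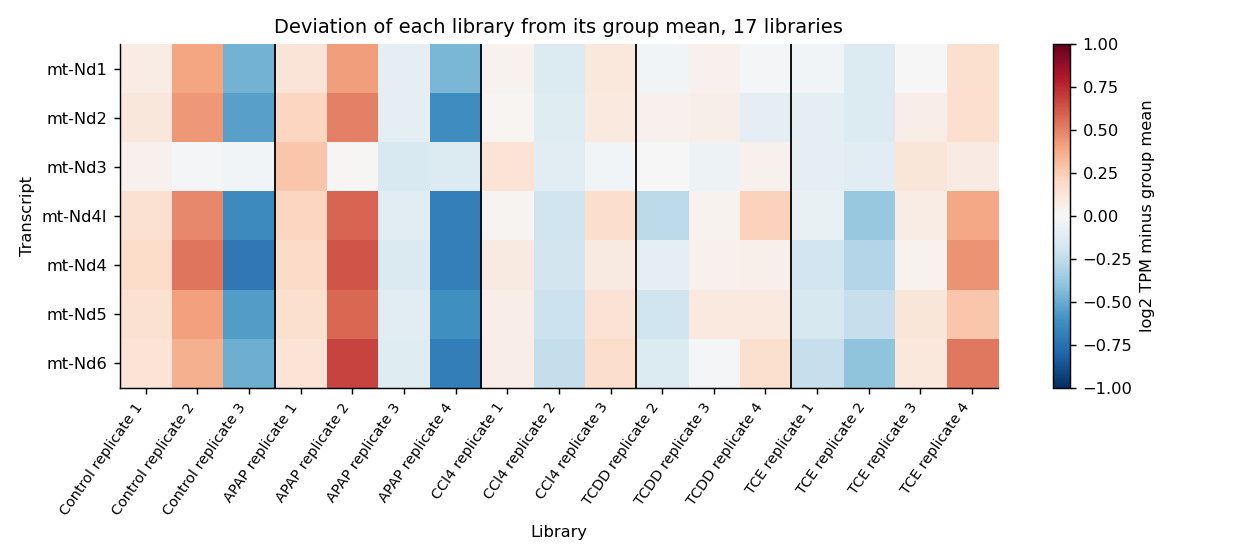
Log2 TPM of each transcript minus the mean of its group, in the 17 libraries other than TCDD replicate 1 (red higher, blue lower than the group mean). Apart from the mt-Nd3 row, which is pale in the Control columns, the 6 members are all red or all blue in 14 of the 17 columns; TCDD replicates 2, 3 and 4 are mixed.

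The compounds were then compared with the vehicle and with each other to ask what each did to these messages within 6 h. Counts were scaled with TMM factors, which set most transcripts to no change between libraries, and tested with edgeR's quasi-likelihood test in 1 fit of all groups; calls were made at 0.05 after Benjamini-Hochberg adjustment over all tested transcripts. All 7 members passed the low-count filter. In bulk samples, fewer cells and less RNA per cell cannot be told apart.

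With all 18 libraries in the fit, edgeR called 0 of the 7 members in each of the 4 comparisons with Control and each of the 6 comparisons between compounds. At an unadjusted p under 0.05, edgeR counted 0, 0, 4 and 0 members for APAP, CCl4, TCDD and TCE against Control, where 51.5%, 16.8%, 26.4% and 17.2% of all tested transcripts had such a p. DESeq2 gave no p-value for mt-Nd1, mt-Nd2, mt-Nd5 and mt-Nd6 and called 0 of the other 3, where it called 48.7%, 8.55%, 10.4% and 8.98% of the transcripts to which it gave an adjusted p. limma voom with sample weights called 0, 2, 1 and 4 of 7, where it called 58.2%, 26.1%, 21.9% and 28.6% of all. For APAP against CCl4, TCDD and TCE edgeR counted 0, 2 and 1 members at an unadjusted p under 0.05. Such a p was held by 50.9%, 56.1% and 53.5% of all tested transcripts. The 2 against TCDD were lower with APAP (mt-Nd1 and mt-Nd6, log2 fold changes of -1.72 and -2.54). In the same comparisons limma voom called 7, 6 and 7, all higher with APAP, where it called 55.5%, 54.7% and 56.2% of all. Against Control, the log2 fold changes with TCDD were 0.41 to 2.83, all above 0. Those of APAP against TCDD were -0.05 to -2.54, all below 0. Both rested on TCDD replicate 1. That library also widened the error of the other comparisons through the shared fit: the standard error of mt-Nd1 with APAP was 0.84 with it and 0.14 without it, on the log2 scale. The comparisons below are those of the fit without it, with 17 libraries.

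With APAP, edgeR called 2 of 7 members higher relative to the bulk of transcripts. In this comparison 22.5% of the 16270 tested transcripts were called higher and 50.8% in all (45.9% with 18 libraries). The 2 of 7 are thus near the share of all tested transcripts called higher. mt-Nd3 went from 395 ± 20.0 CPM with TMM factors in Control (SD, n = 3) to 507 ± 65.0 with APAP (SD, n = 4), without overlap (the share of all tested transcripts without overlap was not counted here). Its log2 fold change was 0.37 ± 0.09 (SE; edgeR adjusted p = 0.00369). mt-Nd2, a proton-pumping subunit, rose by 0.49 ± 0.17 in log2 units (SE; adjusted p = 0.0266 in edgeR), with CPM of 356 to 620 in Control and 500 to 879 with APAP, which overlapped. The other 5 had log2 fold changes of 0.26 to 0.39 and were not called (edgeR, adjusted p between 0.121 and 0.332).

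These 2 calls depended on the scaling. The mean TMM factor was 0.834 with APAP and 1.03 in Control, and in TPM mt-Nd3 was 2823 ± 410 with APAP (SD, n = 4) against 2960 ± 84.2 in Control (SD, n = 3). Scaled to total counts alone, the log2 fold changes were 0.05 for mt-Nd3 and 0.18 for mt-Nd2 (edgeR adjusted p = 0.667 and 0.450), 0 members were called, and mt-Nd1 and mt-Nd6 stood at -0.05 and -0.02. That scaling moved the median of all tested transcripts from -0.04 to -0.36. The members' median log2 fold change with TMM factors was 0.36, against -0.04 over all tested transcripts and 0.58 over the 100 other transcripts of highest mean CPM. With each library's trend over transcript length removed, 0 members were called, and without Control replicate 3, APAP replicate 1 or APAP replicate 2 the count was 1. For these settings and for total counts, how many of all tested transcripts were called is not given here.

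CCl4 libraries had lower levels of all 7 members than the control mean, of which mt-Nd1 passed. Its log2 fold change was -0.54 ± 0.14 (SE; edgeR adjusted p = 0.0467), with 438 ± 101 CPM in Control and 300 ± 12.4 CPM with CCl4 (SD, n = 3 each), in a comparison where 1.89% of tested transcripts were called lower and 4.12% in all (1.74% with 18 libraries). The other 6 had log2 fold changes of -0.33 (mt-Nd3) to -0.85 (mt-Nd4), with edgeR adjusted p from 0.0688 to 0.181. Before adjustment, 7 of 7 had a p under 0.05, as did 20.8% of all tested transcripts. In TPM, 6 of the 7 lay wholly below Control, mt-Nd4l being the exception, as did 16.4% of tested transcripts. The single call was lost without any 1 of 11 libraries, Control replicates 1 and 2 and CCl4 replicates 1, 2 and 3 among them; 5 members were called without Control replicate 3, where 11.0% of all tested transcripts were. DESeq2 called 5 and limma voom 7 members, where they called 11.8% and 26.5% of all. No share of all tested transcripts is given here for the other left-out libraries.

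For TCDD replicates 2 to 4, edgeR called 0 of 7 members, where 1.68% of tested transcripts were called (4.35% with 18 libraries and all 4 TCDD replicates). The log2 fold changes were -0.37 (mt-Nd3) to -0.92 (mt-Nd4), with edgeR adjusted p from 0.0644 to 0.201. Before adjustment 7 of 7 had a p under 0.05, as did 19.7% of all tested transcripts, and DESeq2 called 5 and limma voom 7, where they called 12.6% and 22.6% of all. mt-Nd3 stood at 2495, 2399 and 2567 TPM in these 3 libraries, below the 2896 to 3056 TPM of Control. Without Control replicate 3, edgeR called 6, and 10.2% of all tested transcripts.

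With TCE, 3 of 7 members fell. mt-Nd4 changed by -0.98 ± 0.24 in log2 units (SE; adjusted p = 0.0311 in edgeR). Its CPM were 787 ± 274 in Control (SD, n = 3) and 400 ± 78.1 with TCE (SD, n = 4), with 486 CPM in Control replicate 3 and 506 in TCE replicate 4 overlapping. mt-Nd1 and mt-Nd3 had log2 fold changes of -0.60 ± 0.13 and -0.40 ± 0.09 (SE; edgeR adjusted p = 0.0226 and 0.0255), both without overlap in CPM (the share of all tested transcripts without overlap was not counted here). In this comparison 2.70% of tested transcripts were called lower and 4.79% in all (1.16% with 18 libraries). mt-Nd2, mt-Nd4l, mt-Nd5 and mt-Nd6 had log2 fold changes of -0.55, -0.71, -0.68 and -0.78, with edgeR adjusted p from 0.0576 to 0.105. DESeq2 and limma voom each called 7, where they called 13.7% and 29.1% of all. The edgeR count fell to 0 when Control 1, Control 2, TCE 1 or TCE 2 was left out and to 1 when TCE 3 was. It was 5 without TCE 4 or APAP 2, 6 without APAP 4 and 7 without Control 3 (12.2% of all tested transcripts). For the other left-out libraries the share of all tested transcripts is not given here.

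These 4 comparisons share the 3 control libraries, among which the 6 members other than mt-Nd3 ranged as given above. Control replicate 3 lay close to the CCl4, TCDD and TCE libraries for these members, and Control replicates 1 and 2 lay above them. The median log2 fold change of the 7 members was -0.61 with CCl4, -0.66 with TCDD and -0.68 with TCE, against -0.01, 0.00 and 0.01 over all tested transcripts and 0.06, 0.04 and 0.02 over the 100 other transcripts of highest mean CPM.

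Comparisons between compounds do not use the control means, although doses were not matched. Without TCDD replicate 1, the 7 members were higher with APAP than with each other compound. All 7 were without overlap in CPM with TMM factors and all 7 were called by edgeR. Of all tested transcripts, 25.6%, 24.2% and 22.3% lay wholly higher with APAP in this way than with CCl4, TCDD and TCE. Against CCl4 the log2 differences ran from 0.70 ± 0.09 for mt-Nd3 to 1.21 ± 0.24 for mt-Nd4 (SE; edgeR adjusted p from 1.43e-05 to 0.00557), where 22.8% of tested transcripts were called higher with APAP and 49.9% in all (44.9% with 18 libraries). Against TCDD they ran from 0.74 ± 0.09 to 1.28 ± 0.25 for the same 2 genes (SE; edgeR adjusted p from 7.77e-06 to 0.00246), where 23.4% were called higher and 50.8% in all (50.4% with 18, where all 7 differences were below 0 and 0 members were called). Against TCE they ran from 0.77 ± 0.09 to 1.34 ± 0.22 (SE; edgeR adjusted p from 1.76e-06 to 0.000797), where 24.3% were called higher and 52.8% in all (47.9% with 18).

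mt-Nd4 thus had the largest log2 difference and mt-Nd3 the smallest in each of these 3 comparisons; whether the genes differ in this was not tested. mt-Nd4 stood at 679 to 1364 CPM in the APAP libraries, at 405 to 463 with CCl4, at 384 to 454 in TCDD replicates 2 to 4 and at 332 to 506 with TCE. mt-Nd5, another proton-pumping subunit, stood at 531 to 974 CPM with APAP and at 311 to 421 in the 10 libraries of those 3 groups. The members' median log2 difference was 1.04, 1.03 and 1.04 against CCl4, TCDD and TCE, beside 0.49, 0.63 and 0.65 for the 100 other transcripts of highest mean CPM.

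The size of the difference depended on the scaling. With total counts alone the members' median was 0.74, 0.66 and 0.66, the median of all tested transcripts moved to -0.32, -0.41 and -0.43, and edgeR called 6, 7 and 7 members higher (all but mt-Nd6 against CCl4, adjusted p = 0.0655). In TPM the APAP libraries overlapped with those of TCDD and TCE for all 7 members, and with those of CCl4 for 4 (mt-Nd1, mt-Nd4l, mt-Nd5 and mt-Nd6). In TPM 11.4%, 6.98% and 7.07% of tested transcripts lay wholly higher with APAP than with CCl4, TCDD and TCE. Leaving out any 1 further library kept the count at 7 in all 3 comparisons. The share of all tested transcripts called with total counts, or with a further library left out, is not given here.

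Among CCl4, TCDD and TCE, edgeR called 0 of 7 members in each of the 3 pairs, and DESeq2 and limma voom also called 0. At an unadjusted p under 0.05 edgeR counted 0 members in each pair. Such a p was held by 11.4% of all tested transcripts for CCl4 against TCDD, 13.9% for CCl4 against TCE and 2.53% for TCDD against TCE. DESeq2 called 4.52%, 5.90% and 0.0246% of transcripts for CCl4 against TCDD, CCl4 against TCE and TCDD against TCE, and limma voom 7.01%, 8.99% and 0%. Those called by edgeR were 0.990% for CCl4 against TCDD, 1.89% for CCl4 against TCE and 0% for TCDD against TCE (1.11%, 0.917% and 0% with 18 libraries). The log2 differences lay between -0.18 and 0.17. mt-Nd2 had 317 to 338 CPM with CCl4 and 368 to 376 in TCDD replicates 2 to 4 (edgeR adjusted p = 0.821). It was without overlap in this pair, whereas the other 6 overlapped. The share of all tested transcripts without overlap was not counted for this pair. The widest 95% intervals reached -0.61 (mt-Nd4l) and 0.68 (mt-Nd6) for CCl4 against TCDD, -0.52 (mt-Nd4l) and 0.67 (mt-Nd6) for CCl4 against TCE, and -0.48 (mt-Nd6) and 0.57 (mt-Nd4l) for TCDD against TCE. Differences up to these bounds are not excluded.

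**Figure D4:**
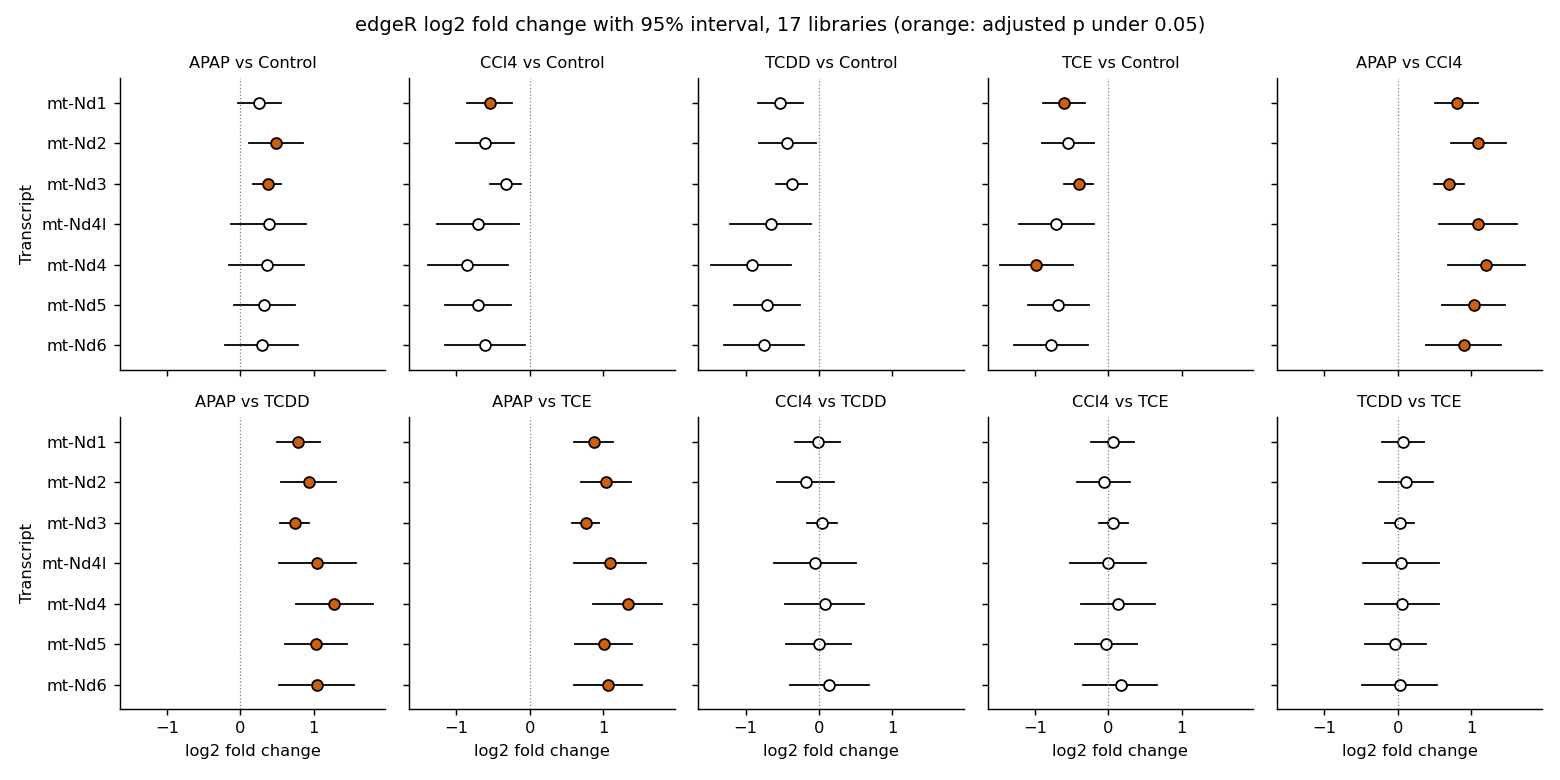
edgeR log2 fold change (first-named group over the other) of each transcript with its 95% interval in 10 comparisons of the 17 libraries other than TCDD replicate 1; orange marks an adjusted p under 0.05. All 7 are orange in the 3 comparisons of APAP with other compounds, and the intervals of the 3 remaining pairs of compounds include 0.

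Ratios between members of the same library do not depend on scaling between libraries. mt-Nd4l and mt-Nd4 overlap by a few bases and are carried by the same messenger RNA. Their TPM were nevertheless unequal: mt-Nd4l was 1.29 (TCDD replicate 1) to 2.05 (TCDD replicate 4) times mt-Nd4. The mt-Nd4l level rests on an effective length of 120 to 128 bases. The part of this in the ratio was not tested. The log2 ratio of mt-Nd4l to mt-Nd4 TPM was 0.57, 0.54 and 0.68 in the controls and 0.62, 0.55, 0.63 and 0.60 with APAP. It was 0.65, 0.69 and 0.80 with CCl4, 0.68, 0.85 and 1.04 in TCDD replicates 2 to 4, 0.37 in TCDD replicate 1, and 0.99, 0.79, 0.92 and 0.81 with TCE.

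With TCDD replicate 1 counted, only the TCE values did not overlap with Control. Without it, the lowest TCDD value (replicate 2) and the highest of Control (replicate 3) both stood at 0.68 after rounding. The TCE mean was 0.29 higher than that of Control (0.88 ± 0.09, n = 4, against 0.59 ± 0.07, n = 3, SD). An exact permutation test, two-sided, gave p = 0.0571, and 0.400 adjusted over 8 tests; this test doubles the one-sided p, and 0.0571 is the lowest it can give for 3 and 4 libraries. The differences with APAP, CCl4 and TCDD were 0.01, 0.12 and 0.14 (exact permutation p = 0.914, 0.200 and 0.457), and that with TCDD was 0.26 without TCDD replicate 1 (exact permutation p = 0.100). With 3 libraries in each group the lowest is 0.100, so in this form none of the 8 tests could pass 0.05.

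The other ratio is of neighbouring genes. Since the labels do not say whether the libraries keep strand, it need not compare strands. mt-Nd6, on the light strand, lies beside the heavy-strand gene mt-Nd5. Its log2 ratio to mt-Nd5 was -0.83, -0.87 and -0.75 in the controls, -0.89, -0.77, -0.88 and -0.95 with APAP, and -0.72, -0.74 and -0.68 with CCl4. It was -0.78, -0.96 and -0.78 in TCDD replicates 2 to 4 and -0.99, -1.08, -0.94 and -0.67 with TCE. TCDD replicate 1 alone was above 0, at 0.06. CCl4 differed from Control by 0.10 without overlap (exact permutation p = 0.100, adjusted 0.400). The differences were -0.06 with APAP, -0.11 with TCE and 0.20 with TCDD (exact permutation p = 0.286, 0.400 and 0.743), and -0.03 with TCDD without replicate 1 (exact permutation p = 0.800).

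**Figure D5:**
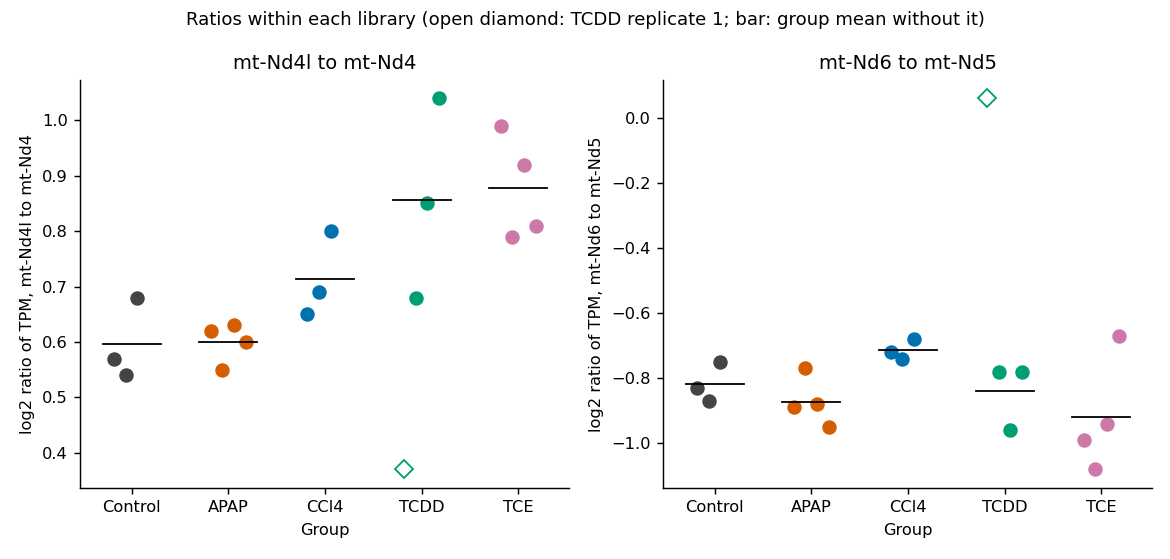
Log2 ratio of TPM within each library for mt-Nd4l to mt-Nd4 and for mt-Nd6 to mt-Nd5, by group, with bars at the group means without TCDD replicate 1 (open diamond). The TCE libraries lie above the controls on the left, and TCDD replicate 1 stands at 0.37 on the left and 0.06 on the right.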

How the data were processed

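Reads had been assigned to transcripts by the authors with kallisto 0.43, per the submitters' processing notes. Build, annotation, read layout and strandedness were not stated. The deposited tables hold, per transcript, expected counts (estimated counts that share reads matching several transcripts), TPM, length and effective length. Estimated counts were rounded and tested; TPM were used for levels and ratios.

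filterByExpr kept 16473 transcripts with 18 libraries and 16270 without TCDD replicate 1. edgeR 4.0.16 (TMM, robust quasi-likelihood, R 4.3.3) fitted all groups in 1 model. Alternatives were DESeq2 1.42.0 (size factors or the whole test), limma 3.58.1 voom with sample weights, total-count scaling, TMM factors computed without the members, no low-count filter, effective length offsets, a length trend removed, a replicate block, compared groups alone, and each library left out. Ratios were tested by exact permutation, with the two-sided p as the doubled one-sided p. The edgeR step was tested on simulated data.

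The members, lists and tests were chosen with earlier results of these data known. All 7 members are named; other transcripts are named by the highest correlation with them. Nuclear complex I, assembly, mitochondrial transcription and cell type lists were not analysed, since no identifier was matched to a symbol. No sequence of the members was used here.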

Additional observations from a re-analysis of the deposited data

Results flagged for a closer look

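In 30 sets of values from groups of 4 libraries, the distance of the most extreme library from its nearest neighbour was set against the whole range (Dixon's criterion). It passed the 95% critical value in 8 sets, where chance gives about 5%. All 8 belong to TCDD replicate 1. They were the TPM of mt-Nd1 (7565), mt-Nd2 (6369), mt-Nd3 (6824), mt-Nd4l (6048), mt-Nd4 (4676), mt-Nd5 (5172) and mt-Nd6 (5381), and the members' summed share of counts (2.74%). That distance made up 0.945 (mt-Nd4l) to 0.997 (mt-Nd1) of the range of the TCDD group. The 8 sets are not independent, since they come from the same library.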

How the results depend on the processing

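Counts here are of the 7 members called by adjusted p. Shares of all tested transcripts called are given above for the main edgeR fits, DESeq2 and limma voom. They are also given for CCl4, TCDD and TCE against Control without Control replicate 3. For the other settings no such share is given here, so a count there was not set against all transcripts. With 18 libraries, where the count was 0 in each comparison, leaving out each library in turn gave 0 to 2 for APAP against Control, 0 to 1 for CCl4, 0 to 3 for TCE, and 0 to 7 for APAP against CCl4, against TCDD and against TCE. Counts above 0 came only without TCDD replicate 1, except 3 for APAP against TCDD without TCDD replicate 2, 3 or 4. Those 3 were lower with APAP (members' median log2 fold change -1.58), whereas the 7 called without TCDD replicate 1 were higher (median 1.03). With limma voom the counts were 2, 1 and 4 for CCl4, TCDD and TCE against Control and 7, 6 and 7 for APAP against CCl4, TCDD and TCE. With the compared groups alone they were 1 for APAP against Control and 7 for APAP against CCl4 and TCE; with total counts, 2 for APAP against TCDD, both lower with APAP. TCDD against Control changed sign for all 7: the log2 fold changes ran over -0.53 to 2.33 (mt-Nd1), -0.43 to 2.07 (mt-Nd2), -0.37 to 0.62 (mt-Nd3), -0.66 to 1.35 (mt-Nd4l), -0.92 to 1.48 (mt-Nd4), -0.71 to 2.41 (mt-Nd5) and -0.75 to 3.22 (mt-Nd6), the low end being without TCDD replicate 1. limma voom gave -0.42, -0.34, -0.38, -0.73, -0.89, -0.65 and -0.75 in the same order. For APAP against Control, total counts turned mt-Nd1 to -0.05 and mt-Nd6 to -0.02, with 18 and with 17 libraries alike.

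With 17 libraries (settings chosen after seeing the data), total counts gave 0 for APAP and 0 for CCl4 against Control, and the length trend removed gave 0, 2 and 1 for APAP, CCl4 and TCDD. DESeq2 gave 5, 5 and 7 for CCl4, TCDD and TCE, and limma voom 7, 7 and 7. Leaving out a further library gave 1 to 3 for APAP, 0 to 5 for CCl4, 0 to 6 for TCDD and 0 to 7 for TCE. The cause of these changes was not tested. Of 1127 alternative values for single members with 17 libraries, 1027 kept direction and call, 60 gained a call, 38 lost it and 2 reversed; with 18 libraries 739 of 768 kept both, leaving out the 16 values for which DESeq2 gave no p.

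Replicate numbers in the titles are not said to pair libraries. Deviations from group means correlated at -0.13 to 0.11 between same-numbered libraries, with 2 of 33 pairs over 0.1. Between libraries of different numbers they correlated at -0.18 to 0.14, with 3 of 96 pairs over 0.1. Of 18 libraries, 5 correlated best with their own number, and how many would by chance was not tested. With the replicate block, the 17-library counts for CCl4 and TCE against Control were 0 and 1. In the paired mean, the log2 ratio of mt-Nd4l to mt-Nd4 was 0.31 higher with TCE.

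The difference in the mt-Nd6 to mt-Nd5 log2 ratio with TCDD ran from -0.03 to 0.31 over libraries left out, and that of mt-Nd4l to mt-Nd4 with APAP from -0.02 to 0.05; their other alternatives kept direction. Each member had at least 348 counts in each library, and the groups held 3 or 4 libraries, which limits the precision of each comparison.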

Other observations

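The tested transcripts whose pattern was most like that of the members were looked up among 9093 others with a mean of at least 10 CPM, over the 17 libraries. Closest to the mean log2 CPM of the 6 heavy-strand members were ENSRNOT00000032126.5 (Pearson r = 0.978, 3876 bases, mean 27.0 CPM) and ENSRNOT00000090420.1 (r = 0.975, 4862 bases, mean 66.9 CPM). Closest to mt-Nd6 were ENSRNOT00000009817.4 (r = 0.975, 1889 bases, mean 66.0 CPM) and ENSRNOT00000012775.7 (r = 0.969, 2190 bases, mean 333 CPM). The 6 members themselves correlated with their own mean at 0.869 (mt-Nd3) to 0.994 (mt-Nd1). Each is a part of that mean, which raises its r, so these values are not comparable with those above. The r values of the other transcripts are the highest of many correlations over libraries that share groups and scaling, and these transcripts come without names.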
